A study of Mus musculus with 4 samples.

Results

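The genes described here are the mouse cyclins of the A, B, D and E types, the cyclin-dependent kinases (CDKs), the CDK inhibitors of the Cdkn1 and Cdkn2 families, and the E2F and DP transcription factors. The pocket proteins, CDC25 phosphatases, Wee1, Plk1, the Aurora kinases, Skp2, Fbxw7, and Trp53 with Mdm2 and Mdm4 complete the set. They were chosen by gene symbol, and Cdkn1c was left out by the rule. The rule found 59 of the 20296 genes in the authors' deposited comparison table, and 58 of the 59 had an adjusted p-value.

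RNA was sequenced from epiblast-like stem cells (EpiLSC) and from naive embryonic stem cells (nESC). EpiLSC were collected on day 3 of culture in N2B27 medium with activin A at 20 ng/ml and bFGF at 12 ng/ml, and nESC were kept in medium with 2i and LIF, that is, kinase inhibitors and a cytokine that hold the naive state. Each state had 2 samples, 1 of the mouse embryonic stem cell line R1 and 1 of the line E14TG2a, with no genetic change named in the labels. The values compare the states and hold no level per sample, so differences between R1 and E14TG2a were not analysed here, and the effect of the state and that of its medium cannot be told apart.

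D-type cyclins bind CDK4 and CDK6 and start the phosphorylation of the pocket proteins, which hold E2F factors in check. Cyclin E with CDK2 completes that step at the entry to S phase, and cyclins A and B with CDK1 and CDK2 drive DNA replication and mitosis. INK4 inhibitors block CDK4 and CDK6, and the CIP and KIP inhibitors act on CDK2 complexes as well. Mouse embryonic stem cells have been described with a short G1 phase, abundant cyclin E and A, and weak INK4 and D-type cyclin activity. That description may not hold in every medium, and neither cell-cycle phases nor protein activity were measured here.

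The direction of the deposited fold change was read from markers of each state: Fgf5, Otx2, Dnmt3b and Pou3f1 all had positive values and Zfp42, Klf4, Esrrb and Tfcp2l1 all negative ones. Positive values were therefore taken as higher in EpiLSC, and Pou5f1, which both states express, had a log2 fold change of -0.19 (SE 0.76). Depth per sample is unknown. Among fibroblast and feeder cell markers, 3 of 7 tested genes (Thy1, Mmp2 and Dcn) were called higher in EpiLSC, and the implied levels of the 10 in the table summed to 484 normalized counts in EpiLSC and 101 in nESC. The collagen gene Col1a1 stood at 9.04 in EpiLSC and 3.09 in nESC, and Col3a1 at 7.31 in EpiLSC and 0.172 in nESC. Pdgfrb, a marker of the same list, had the opposite direction without passing, at 31.2 in EpiLSC and 73.9 in nESC (log2 fold change -1.24, SE 1.00). The part of such cells in the results was not tested, and in bulk RNA a change in the number of cells of a type and a change in RNA per cell cannot be told apart.

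Most of these genes were abundant, and few were called. By the authors' deposited table, Ccnd2 and Cdk14 rose and Cdkn2a fell in EpiLSC (DESeq2 Wald test, p under 0.05 after Benjamini-Hochberg adjustment). That is 3 of 58 tested members, or 5.17%, against 13.9% of all 16361 tested genes. In EpiLSC 7.67% of all tested genes were called higher and 6.23% lower. Abundant genes were called less often in general: among tested genes with a mean normalized count of 1000 or more, 6.41% were called, and 35 members were in that range, of which 0 were called by the DESeq2 test and 1, Cdk19, had an unadjusted p under 0.05. Over all members 6 of 58 (10.3%) had an unadjusted p under 0.05, against 21.7% of all tested genes. The members' median log2 fold change was 0.03, and that of all tested genes was 0.02.

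**Figure D1:**
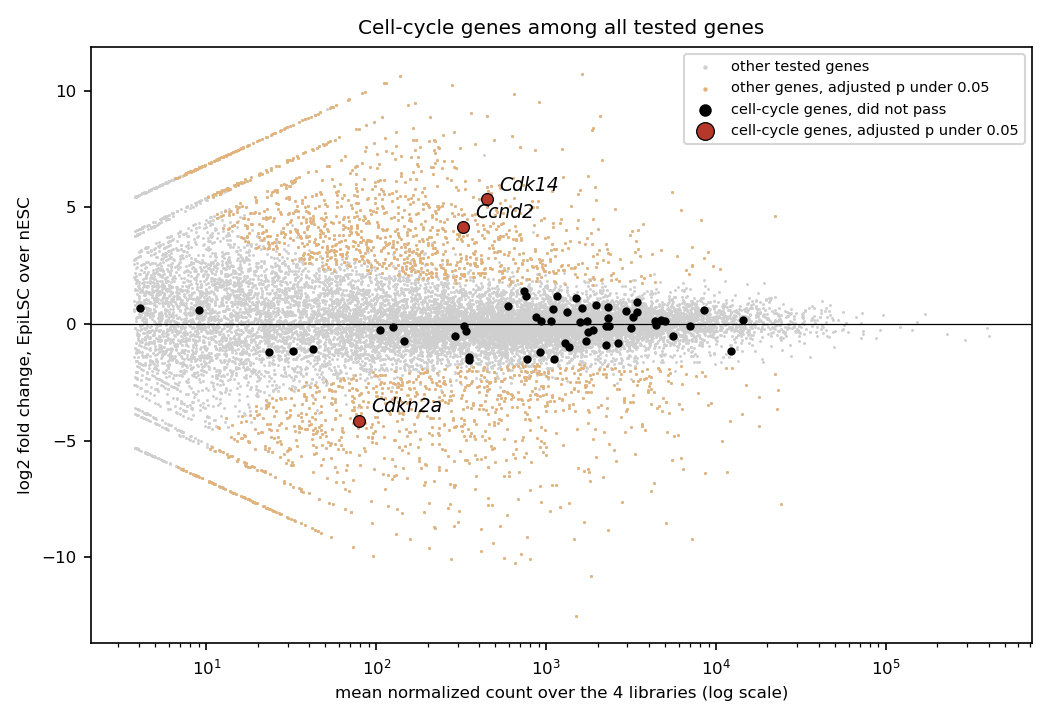
Each point is a tested gene, with its mean normalized count over the 4 libraries on a log axis and its deposited log2 fold change (EpiLSC over nESC) on the linear axis. Ccnd2 and Cdk14 lie above 4 and Cdkn2a below -4, while the 55 members that did not pass lie between -1.53 and 1.40.

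Promoter sequences are shown for the called members that have an entry in the RefSeq table (build GRCm38.p6), together with other members that carry an E2F word before their start. Cdkn2a has 2 entries, since it has a separate first exon for each of its proteins, ARF and the INK4 protein p16. The 250 bases before each start are given 5′ to 3′ on the strand of the gene, the minus strand in all 3 windows, with an E2F word in capitals. The windows lie at chr4:89294620-89294869 (Cdkn2a, upstream start), chr4:89282193-89282442 (Cdkn2a, downstream start) and chr5:5380252-5380501 (Cdk14).
Cdkn2a, upstream start: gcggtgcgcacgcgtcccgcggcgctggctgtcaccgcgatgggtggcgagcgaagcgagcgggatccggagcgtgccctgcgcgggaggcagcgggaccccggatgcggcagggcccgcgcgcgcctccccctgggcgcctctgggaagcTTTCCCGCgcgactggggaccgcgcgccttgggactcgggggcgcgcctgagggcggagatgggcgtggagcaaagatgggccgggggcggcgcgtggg
Cdkn2a, downstream start: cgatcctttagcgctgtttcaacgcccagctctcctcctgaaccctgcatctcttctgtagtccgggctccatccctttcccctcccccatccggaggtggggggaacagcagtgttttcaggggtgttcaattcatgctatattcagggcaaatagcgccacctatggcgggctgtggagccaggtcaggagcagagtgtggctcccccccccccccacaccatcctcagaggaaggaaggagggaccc
Cdk14: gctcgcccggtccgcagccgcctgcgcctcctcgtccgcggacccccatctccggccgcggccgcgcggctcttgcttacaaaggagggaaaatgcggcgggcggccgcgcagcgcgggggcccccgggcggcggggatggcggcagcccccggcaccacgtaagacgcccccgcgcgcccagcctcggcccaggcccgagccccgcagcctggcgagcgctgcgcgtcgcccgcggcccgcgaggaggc

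The words searched were TTTCCCGC, TTTCGCGC, TTTGCCGC and TTTGGCGC on both strands, forms of the site that E2F factors are known to bind. They were present in the windows of 8 of 46 members with an entry (17.4%), against 2.16% of 27025 genes with one. Those 27025 were not limited to tested genes, and 13 members had no entry, among them Ccnd1, Ccnd2, Ccna2, Ccne2 and Rb1. The base composition of these windows was not matched: the window of E2f7 held 79.2% G and C and that of Cdk1 56.4%. The stretches below, each with up to 10 bases on either side, show the word in the other 7 members, on the strand of the gene.
Cdc25a, chr9:109875502-109875529, plus strand: gtgaattccgTTTGGCGCcaactaggaa
Cdk1, chr10:69353026-69353053, minus strand: ttccgctcccTTTCGCGCtctgcgctcc
Rbl1, chr2:157204535-157204562, minus strand: agaaggcgatTTTCGCGCgctttgtcgc
Cdk2, chr10:128705174-128705201, minus strand: accaggaactGCGGGAAAgttgtgcagc
E2f3, chr13:29986064-29986084, minus strand: tgaaaagccgGCGGGAAAtct
E2f7, chr10:110745231-110745258, plus strand: ccgcgtccccGCGGGAAAcgctcccgcg
Tfdp1, chr8:13338698-13338725, plus strand: ggcgccgaagGCGCGAAAaggcgcgcag
The word stands in its reverse form in Cdk2, E2f3, E2f7 and Tfdp1. By the authors' deposited table the fold changes of the carriers ran both ways: Cdkn2a was called lower, and the other 7 did not pass, with log2 fold changes between -0.88 (Cdk2) and 1.40 (E2f7). A second motif, the cell cycle homology region word TTTGAA, was present in 9 of 46 members (19.6%) and in 18.3% of all genes with an entry.

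Among the D-type cyclins, which couple growth signals to CDK4 and CDK6, Ccnd2 rose in EpiLSC. Its implied level was 612 normalized counts in EpiLSC and 34.0 in nESC, with a log2 fold change of 4.17 (SE 0.74, 95% interval 2.72 to 5.62, adjusted p 7.35e-07, DESeq2 Wald test) by the authors' deposited table. That is an 18.0-fold higher level. Ccnd1 was close to equal, at 4376 normalized counts in EpiLSC and 4477 in nESC, with a log2 fold change of -0.03 (SE 0.64) by the authors' deposited table. Ccnd3 had 552 in EpiLSC and 1280 in nESC, and its log2 fold change of -1.21 (SE 0.89, adjusted p 0.533, DESeq2) did not pass by the authors' deposited table. Whether the 3 genes differ from each other in their fold changes was not tested.

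Per kb of exon, Ccnd1 was the main D-type cyclin transcript of either state. On that scale Ccnd1 had an implied 929 normalized counts per kb in EpiLSC and 951 in nESC, which is 87.9% of the D-type sum in EpiLSC and 86.4% in nESC. Ccnd2 made up 6.15% of that sum in EpiLSC and 0.329% in nESC, and Ccnd3 5.95% in EpiLSC and 13.3% in nESC. The summed level was 1057 per kb in EpiLSC and 1100 in nESC. The exon length merges all annotated transcripts of a gene, 4.7 kb for Ccnd1 and 8.8 kb for Ccnd3. Shares and ranks per kb, here and below, therefore depend on the annotation, and the lengths of the transcripts expressed were not measured. Exons of Ccnd1 overlap LTO1 on the opposite strand over 23.4% of their length, and those of Ccnd2 overlap the antisense genes Gm43126 (3.95%) and 9330179D12Rik (3.91%). In all, exons of 23 members overlap a gene on the opposite strand, among them Cdk4 (Tspan31, 19.7%) and Ccne2 (Ints8, 17.4%). The libraries were strand-specific, but the strand setting of the counting is not given in the sources used here. Whether reads of such pairs were counted apart is therefore unknown.

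None of Cdk4, Cdk6, Cdk2 and Cdk1 passed. Cdk4 and Cdk6, the partners of the D-type cyclins, had log2 fold changes of -0.52 (SE 0.64) and -0.80 (SE 0.67) by the authors' deposited table. Cdk2, the partner of cyclins E and A, stood at -0.88 (SE 0.62, adjusted p 0.495, DESeq2), and Cdk1, the mitotic kinase, at 0.15 (SE 0.71) by the authors' deposited table. Cdk4 was the higher of the D-cyclin partners per kb, with an implied 1400 in EpiLSC and 2009 in nESC, against 139 in EpiLSC and 241 in nESC for Cdk6. The 95% intervals of Cdk4 and Cdk1 lay within a 4-fold change either way.

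**Figure D2:**
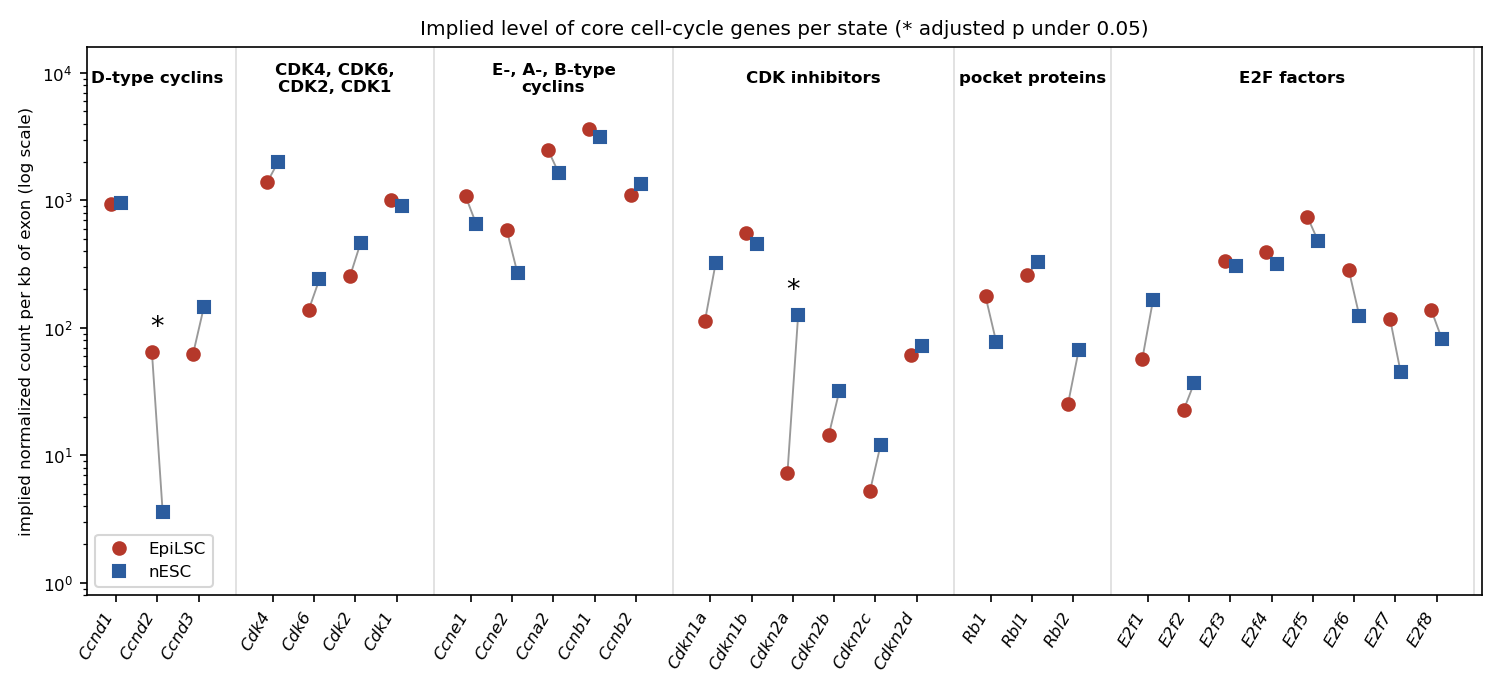
Implied normalized counts per kb of exon on a log axis for core members, with EpiLSC as circles and nESC as squares; the levels carry no error, and an asterisk marks an adjusted p under 0.05. Ccnd2 is higher in EpiLSC and Cdkn2a lower, while Ccnd1 is nearly level at 929 in EpiLSC and 951 in nESC.

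The cyclins that act later in the cycle were abundant and were not called. Ccnb1, the mitotic cyclin B1, had the highest level per kb of all members, an implied 3608 in EpiLSC and 3172 in nESC, and a log2 fold change of 0.19 (SE 0.74) by the authors' deposited table. Ccnb2 stood at -0.27 (SE 0.67) and Ccna2, which encodes the cyclin A of dividing cells, at 0.60 (SE 0.71) by the authors' deposited table. Cyclin E genes both had positive values that did not pass, 0.73 (SE 0.62) for Ccne1 and 1.12 (SE 0.75, adjusted p 0.454, DESeq2) for Ccne2 by the authors' deposited table. Together the E-type cyclins had an implied 1664 per kb in EpiLSC and 920 in nESC, with Ccne1 at 65.0% of the sum in EpiLSC and 70.9% in nESC.

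Both cyclins best known from the germline had few counts. Ccna1, the cyclin A of male meiosis, had a mean of 9.05 normalized counts and a log2 fold change of 0.59 (SE 1.47) by the authors' deposited table. Ccnb3, a cyclin of oocyte meiosis, had a mean of 2.10 normalized counts there and no adjusted p. Of the B-type cyclins, Ccnb1 and Ccnb2 have annotated pseudogenes named after them, as do Ccnd3, Trp53 and Mdm4, so reads could be split or lost between copies.

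The CDK inhibitors held the only called fall of the 59 members, that of Cdkn2a, which encodes the CDK4 and CDK6 inhibitor p16 and, from another reading frame, ARF, an inhibitor of Mdm2. Cdkn2a had an implied 8.48 normalized counts in EpiLSC and 149 in nESC, with a log2 fold change of -4.13 (SE 1.08, 95% interval -6.26 to -2.01, adjusted p 0.00186, DESeq2 Wald test) by the authors' deposited table. The level in nESC was thus 17.6-fold higher. The table gives 1 value per gene, so the transcripts from the 2 starts shown above were not separated. Against a null of a 2-fold change the call of Cdkn2a ended, with an adjusted p of 0.0548; over its alternatives the adjusted p ranged from 0.00184 to 0.0548.

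Cdkn2b, the neighbour of Cdkn2a on the chromosome, and Cdkn2c, further INK4 genes, did not pass, with log2 fold changes of -1.16 (SE 1.14) and -1.21 (SE 1.02) by the authors' deposited table. Cdkn2d stood at -0.25 (SE 0.75), with a 95% interval within a 4-fold change. Per kb the INK4 genes summed to an implied 87.8 normalized counts in EpiLSC and 244 in nESC. Cdkn2a was 8.24% of that sum in EpiLSC and 52.1% in nESC, and Cdkn2d 69.4% in EpiLSC and 29.7% in nESC.

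Of the CIP and KIP genes, Cdkn1a, which encodes p21, a target of p53, had an implied 401 normalized counts in EpiLSC and 1140 in nESC. The authors' deposited table gives it a log2 fold change of -1.51 (SE 0.65) with an unadjusted p of 0.021, and it did not pass after adjustment (0.12, DESeq2). Cdkn1b, which encodes p27, stood at 0.26 (SE 0.71) by the authors' deposited table, and its interval lay within a 4-fold change. Cdkn1b was the most abundant inhibitor measured here in either state, at 551 per kb in EpiLSC and 459 in nESC, or 73.3% of the summed inhibitors in EpiLSC and 44.8% in nESC. The 6 inhibitors summed to 751 per kb in EpiLSC and 1024 in nESC. Of the 6, 5 had negative fold changes and 1 was called lower, while 6.23% of all tested genes were called lower. Among all 58 tested members 29 values were negative.

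Pocket proteins restrain the E2F factors, and none of the 3 genes passed. Rb1 stood at 1.19 on the log2 scale (SE 0.64, adjusted p 0.269, DESeq2) by the authors' deposited table. Its exons overlap those of Rcbtb2 (8.11% of the Rb1 exons) and Lpar6 (6.78%) on the opposite strand, whose own values were 2.19 (SE 0.64) and 1.66 (SE 0.72). Rbl1, which encodes p107, stood at -0.34 (SE 0.62), and Rbl2, which encodes p130, at -1.40 (SE 0.68, unadjusted p 0.0389, adjusted p 0.193, DESeq2), by the authors' deposited table. Exons of Rbl2 overlap Aktip (9.17% of the Rbl2 exons) and Gm45464 (11.8%) on the opposite strand, and Aktip itself stood at 0.28 (SE 0.68). Rbl1 was the most abundant per kb in both states. Rb1 made up 38.4% of the pocket protein sum in EpiLSC and 16.4% in nESC, and Rbl2 5.54% in EpiLSC and 14.3% in nESC. The sum itself was 460 per kb in EpiLSC and 472 in nESC.

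The E2F factors E2f1 to E2f3 are best known as activators and the later numbers as repressors. Of the 10 E2F and DP genes, 0 passed in the DESeq2 test (13.9% of all tested genes did). An unadjusted p under 0.05 was found for 0 of the 10, against 21.7% of all tested genes. E2f1 had the most negative fold change of the family, -1.53 on the log2 scale (SE 0.81, unadjusted p 0.0576, adjusted p 0.254, DESeq2) by the authors' deposited table, with an implied 181 normalized counts in EpiLSC and 524 in nESC. E2f2 stood at -0.72 (SE 0.75) and E2f3 at 0.14 (SE 0.65) there. All of E2f4 to E2f8 had positive values that did not pass, in the order E2f7 (1.40, SE 0.74), E2f6 (1.22, SE 0.74), E2f8 (0.76, SE 0.93), E2f5 (0.63, SE 0.72) and E2f4 (0.31, SE 0.86) by the authors' deposited table. These neighbours in order differ by less than their standard errors. Per kb, E2f5 was the most abundant E2F gene, at 743 in EpiLSC and 479 in nESC, and E2f1 was 2.74% of the E2F sum in EpiLSC and 10.7% in nESC. The DP genes Tfdp1 and Tfdp2, the partners of E2F factors on DNA, had 0.55 (SE 0.67) and 0.52 (SE 0.64) by the authors' deposited table.

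**Figure D3:**
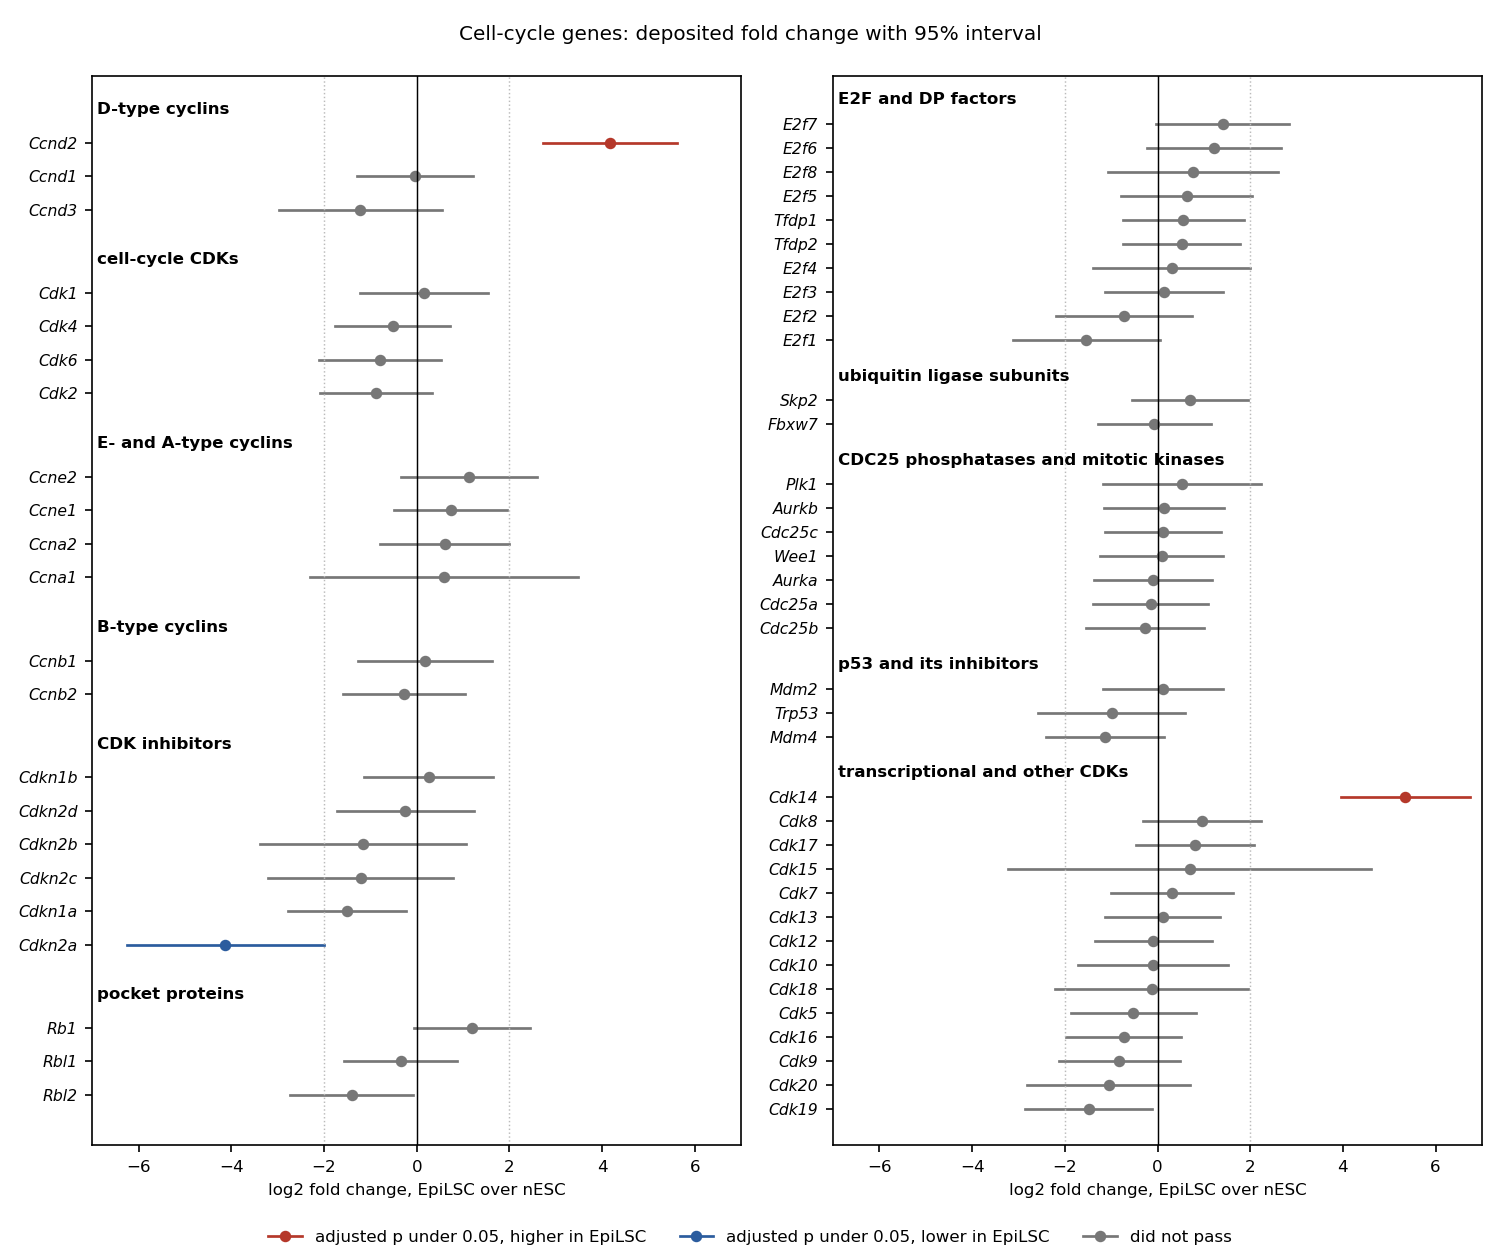
Deposited log2 fold change (EpiLSC over nESC) with its 95% interval for the 58 tested members by role; dotted lines mark a 4-fold change either way. Ccnd2 and Cdk14 are the members called higher, Cdkn2a the member called lower, and 28 intervals lie between the dotted lines.

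Regulators of CDK activity and of mitosis held no called gene. The 7 genes here are those for CDC25 phosphatases, which activate CDKs, Wee1, which inhibits them, and the mitotic kinases. In the DESeq2 test 0 of the 7 passed (13.9% of all tested genes did) and 0 had an unadjusted p under 0.05 (21.7% of all). The log2 fold changes of the 7 ran from -0.28 (Cdc25b, SE 0.65) to 0.53 (Plk1, SE 0.87) by the authors' deposited table, and 6 of the 7 intervals lay within a 4-fold change. Skp2, the subunit that targets p27 for degradation, stood at 0.70 (SE 0.63) and Fbxw7, which targets cyclin E, at -0.07 (SE 0.62) by the authors' deposited table. Ccnd3 and Plk1 were the tested members whose standard errors exceeded those of over 90% of the 500 tested genes nearest in mean. Of the 58 tested members, 36 had standard errors below the median of such genes.

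Of p53 and its inhibitors, none passed. Trp53 had a log2 fold change of -0.99 (SE 0.81), Mdm4 of -1.14 (SE 0.65, adjusted p 0.32, DESeq2) and Mdm2, the ligase that degrades p53, of 0.12 (SE 0.66) by the authors' deposited table. Mdm4 had an implied 7616 normalized counts in EpiLSC and 16739 in nESC, or 515 per kb in EpiLSC and 1131 in nESC. Trp53 had 225 per kb in EpiLSC and 446 in nESC.

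Among the CDKs outside the core cycle, Cdk14 rose in EpiLSC. It encodes a kinase that cyclin Y activates at the membrane and that is known from human and Drosophila cells for phosphorylating the Wnt co-receptor LRP6. Its implied level was 870 normalized counts in EpiLSC and 21.4 in nESC, and its log2 fold change of 5.34 (SE 0.71, 95% interval 3.95 to 6.73, adjusted p 7.19e-12, DESeq2 Wald test) by the authors' deposited table equals 40.6-fold. This was the largest change of the 58 tested members. Its partner genes Ccny (0.10, SE 0.72) and Ccnyl1 (0.67, SE 0.69) did not pass by the authors' deposited table. Cdk14 has long exons in all, 18.9 kb, and on the per-kb scale it stood at 46.1 in EpiLSC and 1.13 in nESC.

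The relatives of Cdk14 in the PCTAIRE and PFTAIRE group did not pass: Cdk15 (0.70, SE 2.00, mean of 4.05 normalized counts), Cdk16 (-0.73, SE 0.63), Cdk17 (0.81, SE 0.65) and Cdk18 (-0.13, SE 1.06) by the authors' deposited table. The CDKs of the transcription machinery did not pass either. Cdk7, of the CDK-activating kinase, stood at 0.30 (SE 0.67) and Cdk9, of the elongation factor P-TEFb, at -0.82 (SE 0.66) by the authors' deposited table. Cdk12 (-0.09, SE 0.64) and Cdk13 (0.11, SE 0.63), which phosphorylate RNA polymerase II, had intervals within a 4-fold change. The paralogues of the Mediator kinase had values of opposite sign: Cdk8 0.96 (SE 0.65), and Cdk19 -1.49 (SE 0.70, unadjusted p 0.0345, adjusted p 0.176, DESeq2), neither of which passed by the authors' deposited table. Per kb, Cdk8 had an implied 456 in EpiLSC and 235 in nESC, and Cdk19 99.1 in EpiLSC and 278 in nESC. The remaining genes of this group, Cdk5, Cdk10 and Cdk20, ranged from -1.06 (Cdk20, SE 0.90) to -0.09 (Cdk10, SE 0.83).

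A value that did not pass does not show an equal level. No gene of the table was called with a log2 fold change smaller than 1.68 in size, and 13 members that did not pass had a value of 1 or more. In 28 of the 55 tested members without a call, the 95% interval lay within a 4-fold change either way. These 28 are 48.3% of the 58 tested members, against 35.8% of all tested genes with such an interval. Among the members with a mean of 1000 or more this held for 23 of 35 (65.7%), against 67.1% of all tested genes in that range.

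Genes that work beside the members were counted in 7 lists. The DESeq2 test called 0 genes, with 0 at an unadjusted p under 0.05, among 23 genes of replication licensing, among 22 S-phase enzyme genes, among 28 genes of the spindle checkpoint and the anaphase-promoting complex, and among 19 of the DNA damage checkpoint. Of all tested genes 13.9% were called and 21.7% had an unadjusted p under 0.05, and 6.41% of those with a mean of 1000 or more were called. Their median log2 fold changes were -0.15, -0.10, 0.15 and 0.05 in that order. These lists too are made mostly of abundant genes: 79 of the 92 had a mean of 1000 or more. Replication licensing genes ranged from -0.97 to 0.66 and S-phase enzyme genes from -1.25 to 0.81 on the log2 scale. Spindle checkpoint genes ranged from -0.96 to 0.78 and DNA damage checkpoint genes from -0.71 to 0.70.

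In the list of the MuvB complex and MYB factors, which share promoters with E2F factors, 1 of 10 genes rose and 1 fell, which makes 20% called against 13.9% of all tested genes. Mybl2, the MYB factor of dividing cells, fell to an implied 968 normalized counts in EpiLSC, against 8733 in nESC, and the authors' deposited table gives a value of -3.17 on the log2 scale (SE 0.96, adjusted p 0.0095, DESeq2). Its relative Myb rose by 2.28 (SE 0.64, adjusted p 0.00448, DESeq2) by the authors' deposited table, with 1599 normalized counts in EpiLSC and 330 in nESC. The MuvB subunits Lin9, Lin37, Lin52, Lin54 and Rbbp4 and the factor Foxm1 did not pass, with values from -0.88 (Lin37, SE 0.84) to 0.38 (Lin9, SE 0.65). Among 27 other cyclins and CDK partners, 1 was called: Ccno, a cyclin of multiciliated cells, rose by 4.31 (SE 1.18, adjusted p 0.00308, DESeq2) by the authors' deposited table, with an implied 68.2 normalized counts in EpiLSC and 3.44 in nESC. Against a null of a 2-fold change the calls of Mybl2, Myb and Ccno ended, with adjusted p of 0.232, 0.389 and 0.0663 in that order. Over the alternatives the adjusted p ran from 0.00941 to 0.232 for Mybl2, from 0.00448 to 0.389 for Myb and from 0.00308 to 0.0663 for Ccno.

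Of 27 p53 targets beside Cdkn1a, 2 rose and 0 fell, so 7.41% were called, against 13.9% of all tested genes. An unadjusted p under 0.05 (DESeq2) was found for 4 of the 27, against 21.7% of all tested genes. The median log2 fold change of the list was 0.27. Pmaip1, which encodes the BH3 protein NOXA, rose by 5.07 (SE 0.85, adjusted p 1.27e-07, DESeq2), and Perp, a desmosome gene, by 3.11 (SE 0.75, adjusted p 0.000563, DESeq2), by the authors' deposited table. Perp lost its call with 2-fold as the null (adjusted p 0.0668), and its adjusted p ran from 0.000513 to 0.0668 over the alternatives, while Pmaip1 stayed called under each of them. Bbc3, which encodes PUMA, stood at 3.00 (SE 1.16, adjusted p 0.0649, DESeq2) and did not pass. Ddit4 (1.84, SE 0.73, adjusted p 0.0741, DESeq2), Fas (2.42, SE 1.24) and Dram1 (2.16, SE 1.37) had positive values that did not pass either. Of the others, Ccng1 (0.50, SE 0.85), Sesn1 (-0.34, SE 0.68), Zmat3 (0.23, SE 0.73) and Bax (-0.42, SE 0.98) did not pass by the authors' deposited table. Ccng1 is also in the list of other cyclins and CDK partners. Of the other cyclins and CDK partners 3.70% were called, against 13.9% of all tested genes.

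**Figure D4:**
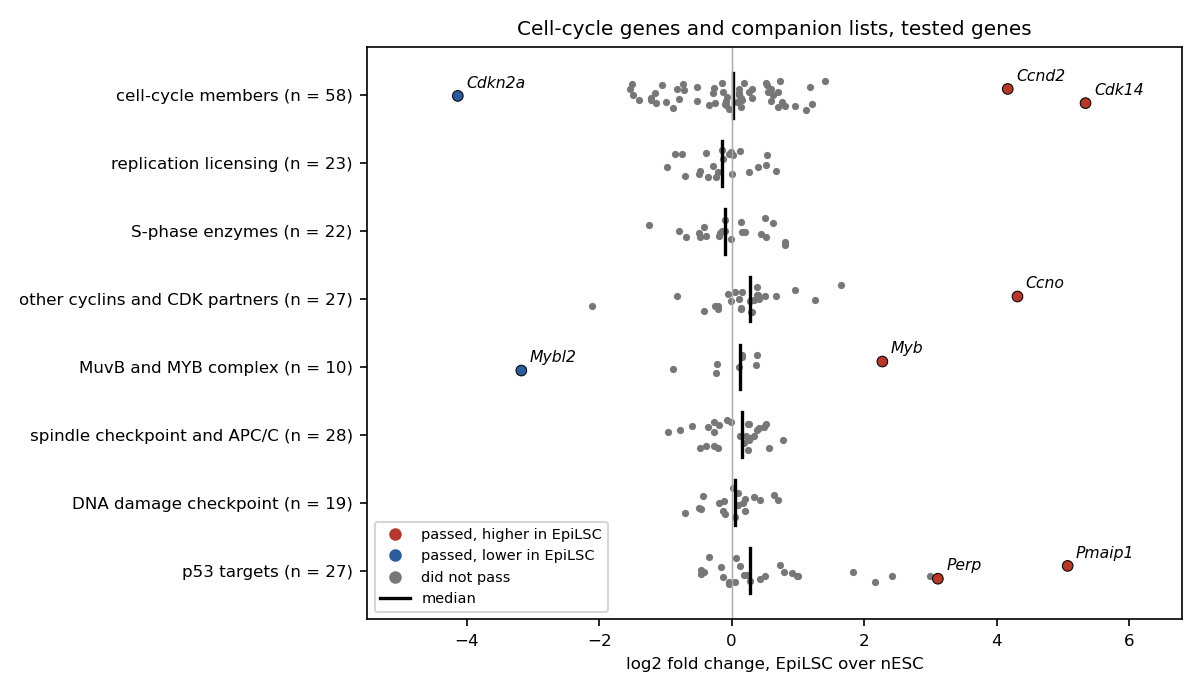
Deposited log2 fold changes (EpiLSC over nESC) of tested genes in the cell-cycle set and in 7 companion lists, 1 point a gene with vertical jitter, with the median as a black bar and called genes named. Called genes occur in 4 of the 8 rows, among the p53 targets beside genes of like size that did not pass, and the medians lie between -0.15 and 0.28.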

How the data were processed

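Strand-specific libraries were made from total RNA of 4 samples after removal of ribosomal RNA, per the labels. The submitters' processing notes name TopHat2, HTSeq, DESeq2 1.8.2 and the build mm9; no source used here gives the annotation or the strand setting. The authors deposited 1 comparison table. It holds the mean of counts divided by size factors (a signal), the log2 fold changes with standard errors, the Wald score, and p-values before and after adjustment, all made by the authors, per the file headers. The 3935 genes without an adjusted p, with means up to 3.74, were not counted as tested.

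The main calls are the authors' own; for the alternatives only, p-values were adjusted anew or recomputed from the deposited fold changes and standard errors. The level implied per state splits 2 times the mean in the ratio of the fold change, assumes equal weights for the libraries and has no SD. Per-kb levels divide by the merged exon length in GENCODE M21, which named 20167 of 20296 gene IDs matched without version. Intervals (95%) use the normal quantile. The call rule was run on simulated fold changes drawn with the deposited standard errors. No counts were simulated, so the standard errors and the DESeq2 model were not tested. Python 3.11.15, pandas 2.3.3 and scipy 1.17.1 were used. The members and lists were chosen with earlier results of these data known. All members could be named, and from other lists up to 3 called genes in each direction; further genes of those lists, the genes that overlap members, and the markers of both states and of fibroblasts were named after their values were seen. Each line was sampled 1 time per state, and the p-values rest on these 4 samples only. They weigh the difference between the states against its standard error in the authors' model. Whether that model took the line into account is not given in the sources used here. Line differences may therefore be part of that error. Alternatives changed the filter, the null hypothesis, the centring and the threshold.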

Additional observations from a re-analysis of the deposited data

How the results depend on the processing

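The members called higher, Ccnd2 and Cdk14, were called under all 5 alternatives: no filter on low means, a filter at a mean of 100, a test against a 2-fold change, centring on the median of abundant genes, and an adjusted p threshold of 0.01. The number of members called lower was 0 in place of 1 with the filter at a mean of 100, where Cdkn2a (mean 78.7) is left out by construction, and 0 when tested against a 2-fold change. Of 284 values for single members under the alternatives, 283 kept their direction and their side of the threshold, the exception being Cdkn2a against a 2-fold change. The centring alone altered fold changes, by 0.004, and 55 of the 58 tested members had no call to lose. This count was therefore largely fixed in advance. With the filter at a mean of 100, the other cyclins and CDK partners had 0 called genes in place of 1. Ccno (mean 35.8) is left out there by construction. Against a 2-fold change that list had 0, the MuvB and MYB list 0 in place of 2 and the p53 targets 1 in place of 2. Over all tested genes 1251 of 10713 were called with the filter at a mean of 100 and 1130 of 16361 against a 2-fold change, in place of 2274 of 16361. Leaving out replicates was not possible, because the table has no value per sample. No paired analysis was possible because the table holds no column per sample or line. Standard errors of at least 0.605 limit what can be called.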
